A study of Mus musculus with 6 samples.

Results

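The 9 genes Hes1, Hey1, Hey2, Heyl, Nrarp, Rbpj, Efnb2, Gja4 and Gja5 were read from the table of gene expression by their symbols, 9 of its 23473 RefSeq rows. The first 6 belong to the nuclear end of the Notch pathway, and the last 3 are genes of arterial endothelium. Tumor endothelial cells (TECs) came from subcutaneous Lewis lung carcinoma (LLC) tumors, a transplanted mouse lung cancer line, in C57BL/6 mice listed as 8 weeks old. Endothelial Notch activation was compared between 3 NICeCA mice and 3 Ctrl mice. NICeCA mice carry Cdh5-driven CreERT2 together with a Rosa26 flox-stop-flox allele of the Notch1 intracellular domain, so that tamoxifen switches on this active, ligand-independent fragment in cells expressing Cdh5, lymphatic endothelium included. The Ctrl mice are labelled wild type, and the sources used here do not say whether they also carried the Cre and received tamoxifen. All 6 libraries are of cells captured from digested tumors on beads against CD31, the protein of Pecam1, after red cells had been lysed. The labels state that tumors were dissected on different days, without giving the day of each library, whereas the study's methods give a single day.

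In the canonical Notch pathway, ligand binding releases the intracellular domain of the receptor, which enters the nucleus and joins the DNA-binding protein RBPJ. RBPJ binds corepressors when the domain is absent and Mastermind coactivators when it is present. Its best known targets are the Hes and Hey genes, which encode basic helix-loop-helix repressors, and Nrarp, which encodes a small ankyrin repeat protein that dampens the same pathway. In vessels, Notch signaling favors arterial over venous identity, and ephrin-B2 (Efnb2), connexin 37 (Gja4) and connexin 40 (Gja5) are among the standard arterial genes.

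RefSeq promoter windows of GRCm38.p6 were found for 6 of the 9 genes: Hey2, Nrarp, Rbpj, Efnb2, Gja4 and Gja5. The 250 bases before the start are shown for Nrarp, Gja4 and Gja5, which were higher in every NICeCA library than in any Ctrl library, and for Hey2, which holds the letters of an RBPJ site. Each is given 5′ to 3′ on the strand of its gene. Capitals mark TGGGAA or its reverse complement in Hey2, CACGTG in Nrarp, and the longest run of letters shared by Gja4 and Gja5. The 4 windows lie at chr2:25180508-25180757 (Nrarp, plus strand), chr4:127314040-127314289 (Gja4, minus strand), chr3:97032152-97032401 (Gja5, plus strand) and chr10:30842784-30843033 (Hey2, minus strand).
Nrarp: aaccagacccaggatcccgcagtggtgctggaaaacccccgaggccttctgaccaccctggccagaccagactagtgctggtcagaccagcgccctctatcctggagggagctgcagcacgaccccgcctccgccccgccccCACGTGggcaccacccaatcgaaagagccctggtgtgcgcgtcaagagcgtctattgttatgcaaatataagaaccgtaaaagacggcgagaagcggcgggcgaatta
Gja4: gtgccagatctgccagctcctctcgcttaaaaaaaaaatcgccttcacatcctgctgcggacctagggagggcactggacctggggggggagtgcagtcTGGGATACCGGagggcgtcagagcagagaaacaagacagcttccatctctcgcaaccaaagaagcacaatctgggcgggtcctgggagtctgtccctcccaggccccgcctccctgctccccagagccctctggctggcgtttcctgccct
Gja5: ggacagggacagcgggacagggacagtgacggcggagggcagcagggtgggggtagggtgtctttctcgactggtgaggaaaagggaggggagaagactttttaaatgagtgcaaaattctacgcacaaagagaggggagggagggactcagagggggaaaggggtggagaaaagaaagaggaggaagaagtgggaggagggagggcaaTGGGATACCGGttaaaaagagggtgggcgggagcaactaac
Hey2: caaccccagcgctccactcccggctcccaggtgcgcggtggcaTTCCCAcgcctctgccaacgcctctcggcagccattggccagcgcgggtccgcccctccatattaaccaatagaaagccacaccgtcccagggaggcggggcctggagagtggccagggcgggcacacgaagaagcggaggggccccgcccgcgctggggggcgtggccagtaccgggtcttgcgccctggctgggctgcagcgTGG

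Both strands were searched from 250 bases before to 50 bases after the start for TGGGAA and GTGGGAA, the core and a longer form of RBPJ sites, and for CACGTG, an E-box of the kind that helix-loop-helix proteins bind. Hey2 held TGGGAA at -207 and -3, each lying within a GTGGGAA, and the second reaches past the bases shown. Rbpj held TGGGAA at -149 and -65 of the first of its 2 windows, and Nrarp held CACGTG at -108. The letters of TGGGAA were not in the windows of Nrarp, Gja4, Gja5 or Efnb2. Of all 32851 windows in the table, 25.6% held TGGGAA, 6.38% held GTGGGAA and 7.15% held CACGTG. Gja4 and Gja5 shared TGGGATACCGG, 11 letters on the strand of each gene, at -151 in Gja4 and -41 in Gja5, a run found in 4 windows in all (0.0122%). Gja4 and Hey2 shared a longer run, CCAGGCCCCGCCTCCCTG, 18 letters on opposite strands at -53 and -119, found in 2 windows. Shared runs were looked for in all 15 pairs of genes, after the expression values had been seen. Each run was picked as the longest of its pair, and its number of windows was not tested against chance.

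Expression is given as deposited, in RPKM, the reads of a row divided by its length and by the total of the library. Differences are on the scale of log2(RPKM + 1), tested with limma over the 12320 RefSeq rows that averaged 1 RPKM or more and called at a Benjamini-Hochberg adjusted p under 0.05. On that scale the change of a low gene is understated. Of these rows, 13.6% were called, 5.88% higher and 7.68% lower in NICeCA. The higher ones made up 43.4% of the calls on the deposited scale, 57.8% after quantile normalization and 58.1% after trimmed mean scaling. The libraries held between 27793301 and 30769916 reads on RefSeq rows, and none was a copy of another. Of the 9 genes, 7 were tested, and Hey2 and Heyl lay below 1 RPKM. Hey1, Gja4 and Gja5 were called higher in the NICeCA libraries. Over all tested rows, 16.5% had every NICeCA library above every Ctrl library, and of the 9 genes Hey1, Hey2, Nrarp, Gja4 and Gja5 did. With 3 mice against 3, the exact permutation test has 20 assignments, and 0.1 is the smallest two-sided p that it can give.

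**Figure D1:**
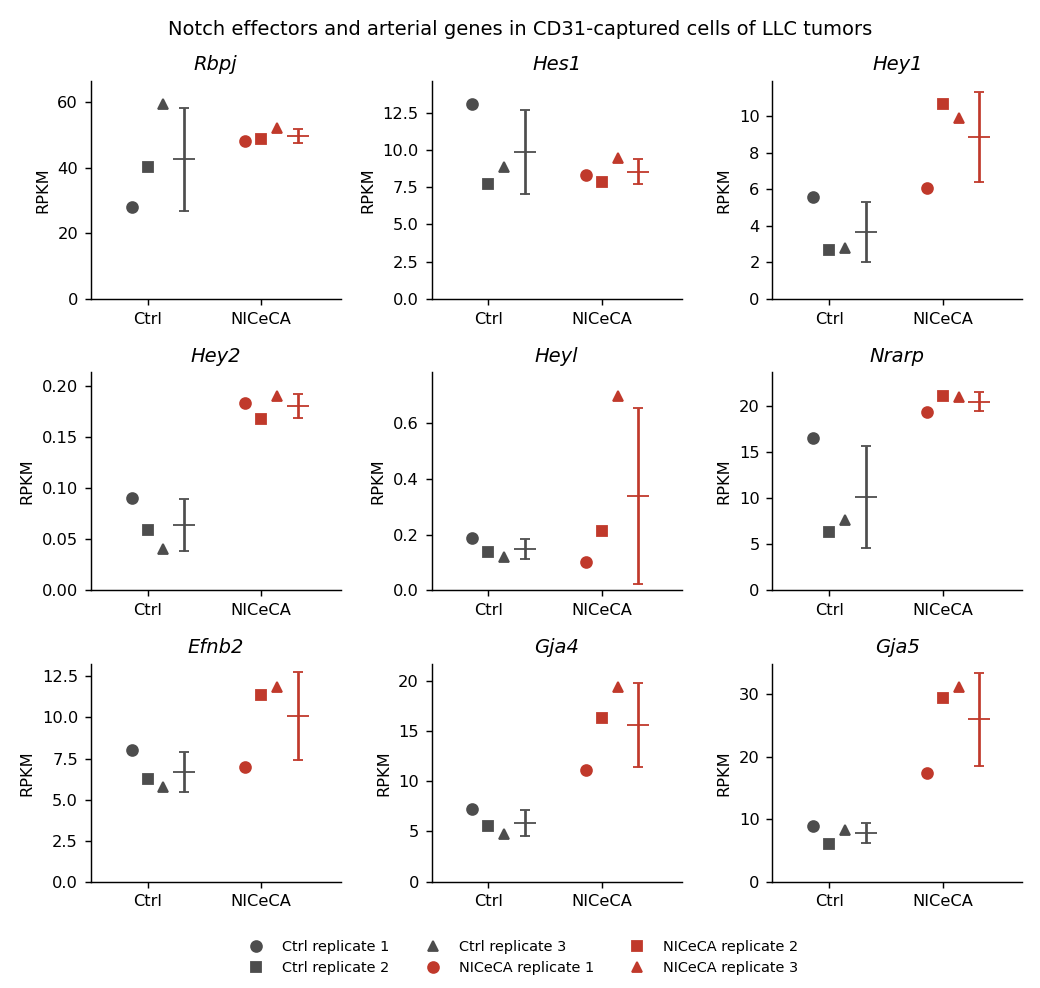
RPKM of the 9 genes in the 3 Ctrl (gray) and 3 NICeCA (red) libraries, with the replicate shown by the symbol and the mean ± SD beside each group on a linear axis that starts at 0. Hey1, Hey2, Nrarp, Gja4 and Gja5 lie higher in all NICeCA libraries, while Hes1, Rbpj, Heyl and Efnb2 overlap.

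Notch1 itself, the source of the activated fragment, was measured at 14.3, 8.19 and 13.8 RPKM in Ctrl replicates 1 to 3 and 12.3, 13.6 and 12.6 RPKM in NICeCA replicates 1 to 3. These ranges overlap (log2 fold change 0.11, SE 0.20, limma adjusted p = 0.71). The row covers the whole Notch1 gene model, and reads of the transgene cannot be separated from it.

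Rbpj (chromosome 5, 53555779 to 53657445, GRCm38), the DNA-binding partner of the released domain, was the most abundant of the 9 genes. Its level was 28.1, 40.2 and 59.4 RPKM in Ctrl and 48.2, 48.8 and 52.2 RPKM in NICeCA. The NICeCA libraries lay close together and inside the Ctrl range. The log2 fold change was 0.28 (SE 0.24, limma adjusted p = 0.43), with a 95% interval from -0.28 to 0.84. A FANTOM3 row on the same strand overlaps Rbpj, as others overlap Hey2 and Efnb2, and may count some of the same reads.

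Among the effectors, Hey1 rose, Nrarp just missed the threshold and Hes1 did not follow them. Hey1 (chromosome 3, 8663359 to 8667038) had 5.55, 2.69 and 2.78 RPKM in Ctrl and 6.05, 10.6 and 9.91 RPKM in NICeCA. The lowest NICeCA library, replicate 1, was only just above the highest Ctrl library, also replicate 1. Its log2 fold change was 1.10 (SE 0.27, limma adjusted p = 0.041), a 2.14-fold difference of RPKM + 1. Without any one of Ctrl replicates 2 and 3 and NICeCA replicates 1, 2 and 3 the adjusted p lay between 0.075 and 0.157, and without Ctrl replicate 1 it was 0.032.

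Nrarp (chromosome 2, 25180758 to 25183332), the feedback inhibitor, had 16.5, 6.34 and 7.59 RPKM in Ctrl and 19.3, 21.1 and 21.003 RPKM in NICeCA. The 3 NICeCA libraries were nearly level, and Ctrl replicate 1 stood closer to them than to the other Ctrl libraries. The means were 10.1 ± 5.53 RPKM in Ctrl and 20.5 ± 1.01 RPKM in NICeCA (SD, n = 3 each). The log2 fold change of 1.05 (SE 0.29) had a limma adjusted p of 0.052, and without Ctrl replicate 1 it was 1.43 with an adjusted p of 0.020. An antisense gene, Gm38287, overlaps Nrarp, and the sources used here leave unsaid whether reads were counted by strand.

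Hes1 (chromosome 16, 30065357 to 30067796), a widely used readout of Notch activity, had 13.1, 7.70 and 8.87 RPKM in Ctrl and 8.33, 7.85 and 9.46 RPKM in NICeCA. The groups overlap, with the highest value in Ctrl replicate 1. Its log2 fold change was -0.16 (SE 0.19, limma adjusted p = 0.56). Its 95% interval ran from -0.59 to 0.27. Without Ctrl replicate 1 the log2 fold change was 0.04, with an adjusted p of 0.86.

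Hey2 (chromosome 10, 30832359 to 30842783), a helix-loop-helix repressor known from arterial development, was detected by few reads. It had 9, 6 and 4 reads in Ctrl (0.091, 0.060 and 0.041 RPKM) and 17, 15 and 18 reads in NICeCA (0.184, 0.168 and 0.191 RPKM). All 3 NICeCA libraries were above all Ctrl libraries (exact permutation p = 0.1, two-sided, n = 3 each). The ratio of the mean RPKM was 2.84.

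Heyl (chromosome 4, 123233556 to 123249870), another helix-loop-helix member that is also known from vascular smooth muscle, had 33, 25 and 21 reads in Ctrl (0.186, 0.139 and 0.119 RPKM). In NICeCA it had 17, 34 and 118 reads (0.103, 0.213 and 0.699 RPKM). One library, NICeCA replicate 3, stood above the rest, while NICeCA replicate 1 lay just below the Ctrl range and NICeCA replicate 2 just above it (exact permutation p = 0.5, two-sided, n = 3 each). The pericyte and smooth muscle markers, summed over 10 genes, were also highest in NICeCA replicate 3, at 145.8 RPKM against 93.7 and 77.2 RPKM in NICeCA replicates 1 and 2. Their part in the Heyl value was not tested.

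Both arterial connexins rose, and ephrin-B2 overlapped between the groups. Gja5 (chromosome 3, 97032402 to 97053634) had 8.97, 5.96 and 8.32 RPKM in Ctrl and 17.4, 29.4 and 31.1 RPKM in NICeCA. Even the lowest NICeCA library was far above the highest Ctrl library. Its log2 fold change of 1.60 (SE 0.24, limma adjusted p = 0.015) was the largest among the 7 tested genes, a 3.03-fold difference of RPKM + 1. An antisense row, 4930573H18Rik, overlaps Gja5, and reads from it cannot be told apart without strand.

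Gja4 (chromosome 4, 127311420 to 127314039) had 7.26, 5.56 and 4.78 RPKM in Ctrl and 11.1, 16.3 and 19.4 RPKM in NICeCA. The order of the NICeCA libraries was the same as for Gja5, with replicate 1 lowest and replicate 3 highest. The log2 fold change was 1.26 (SE 0.22, limma adjusted p = 0.021), a 2.39-fold difference. Both connexins stayed below an adjusted p of 0.05 when any other library was left out, but without NICeCA replicate 2 the adjusted p was 0.074 for Gja5 and 0.095 for Gja4. Their log2 fold changes were then 1.49 and 1.21.

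Efnb2 (chromosome 8, 8617439 to 8660773), the ligand that marks arterial endothelium, had 8.03, 6.26 and 5.74 RPKM in Ctrl and 6.998, 11.4 and 11.9 RPKM in NICeCA. NICeCA replicates 2 and 3 were above all Ctrl libraries, while NICeCA replicate 1 lay among them. The log2 fold change was 0.51 (SE 0.21, limma adjusted p = 0.12, 95% interval from 0.03 to 0.99).

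**Figure D2:**
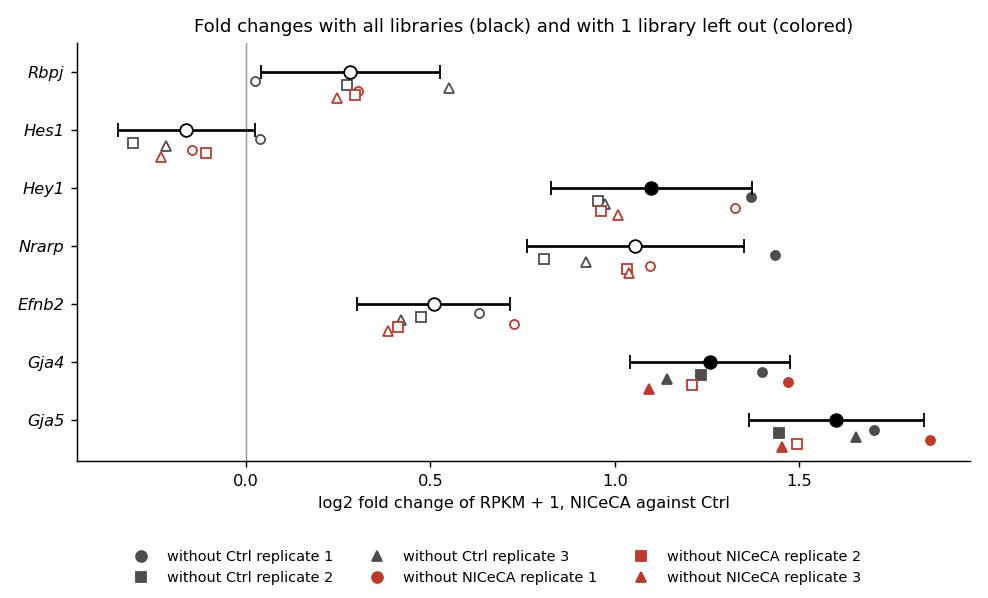
Log2 fold change of RPKM + 1 in NICeCA against Ctrl for the 7 tested genes; black circles show all 6 libraries with the SE, colored symbols show the value with 1 library left out, and filled symbols have a limma adjusted p under 0.05. Gja4 and Gja5 are filled in all but the fit without NICeCA replicate 2, whereas Hey1 is filled with all libraries and without Ctrl replicate 1.

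The levels kept Rbpj on top in both groups, with no overlap with the next gene. In Ctrl, Nrarp (mean 10.1 RPKM), Hes1 (9.88), Gja5 (7.75), Efnb2 (6.67), Gja4 (5.86) and Hey1 (3.67) followed, each overlapping its neighbor. In NICeCA, the order was Gja5 (26.0), Nrarp (20.5), Gja4 (15.6), Efnb2 (10.1), Hey1 (8.87) and Hes1 (8.54), again with overlap between neighbors. Heyl and Hey2 were lowest in both groups. Among the Ctrl libraries, replicate 1 had the highest value of 8 of the 9 genes, and among the NICeCA libraries replicate 1 had the lowest value of 7.

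The captured fraction held RNA of several cell types. In bulk libraries, fewer cells of a type and less RNA per cell cannot be told apart. Endothelial markers were well expressed, but the 20 of them summed to 452 to 1116 RPKM in Ctrl and 939 to 1187 RPKM in NICeCA, below the 9 macrophage markers at 6371 to 9316 and 4300 to 8033 RPKM. Most of the macrophage sum was Lyz2, which averaged 4317 RPKM in Ctrl and 3889 RPKM in NICeCA. The lists hold different genes, so their sums do not measure the share of each cell type. Pecam1, the capture antigen, averaged 88.3 ± 43.9 RPKM in Ctrl and 140.1 ± 14.4 RPKM in NICeCA (SD, n = 3 each; log2 fold change 0.78, limma adjusted p = 0.13). Cdh5, whose promoter drives the Cre, averaged 52.2 ± 26.9 and 78.1 ± 18.7 RPKM (SD, n = 3 each; log2 fold change 0.66, limma adjusted p = 0.20). All 20 endothelial markers had a positive fold change and 2 of them passed the test, Cd93 (log2 fold change 0.87, adjusted p = 0.040) being the second most abundant after Plvap (0.38, adjusted p = 0.42).

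The mean log2(RPKM + 1) of the endothelial markers was 5.30, 4.04 and 4.36 in Ctrl replicates 1 to 3 and 5.005, 5.42 and 5.35 in NICeCA replicates 1 to 3. Ctrl replicate 1 was therefore at the level of the NICeCA libraries, and it is the library that had the highest Ctrl value of 8 of the 9 genes. The group means of this marker level differed by 0.69. Each gene was also taken relative to it, as its own log2(RPKM + 1) minus the marker mean of the same library.

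Because the marker mean differed, the median difference over all 12320 tested genes was -0.74 on this relative scale, where 0.844% of genes had every NICeCA library above every Ctrl library and 22% had every one below. Gja5 was still higher in every NICeCA library, and Hes1 was lower in each. Gja5 lay at -1.98, -1.24 and -1.14 in Ctrl and at -0.80, -0.50 and -0.34 in NICeCA. The groups did not overlap and differed by 0.91 (exact permutation p = 0.1, two-sided, n = 3 each), and they did not overlap against Cdh5 or Pecam1 alone either. Hes1 lay at -1.49, -0.92 and -1.06 in Ctrl and at -1.78, -2.28 and -1.96 in NICeCA. All NICeCA libraries were below all Ctrl libraries, by 0.85 in the means (exact permutation p = 0.1, two-sided, n = 3 each), and the same held against Cdh5 or Pecam1 alone. The value for Hes1 is close to the median over all genes, while that for Gja5 has the opposite sign.

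Nrarp was almost level among the Ctrl libraries on this scale, at -1.17, -1.17 and -1.26, against -0.66, -0.96 and -0.89 in NICeCA. The difference of 0.37 separated the groups (exact permutation p = 0.1, two-sided, n = 3 each), but they overlapped against Cdh5 or Pecam1 alone. Gja4 differed by 0.57 and Hey1 by 0.41, both with overlapping groups (exact permutation p = 0.2 each, n = 3). For Efnb2 and Rbpj the relative differences were -0.18 and -0.41, with overlapping groups (exact permutation p = 0.6 and 0.5, n = 3 each). Hey2 and Heyl are too low for this scale, since their log2(RPKM + 1) is near 0 and the relative value is set by the marker mean. With the marker mean as a covariate in the fit of all genes, the log2 fold change was 1.25 for Gja5 (adjusted p = 0.13), 0.94 for Gja4 (0.17), 0.54 for Hey1 (0.24), 0.40 for Nrarp (0.26) and -0.50 for Hes1 (0.23). In that fit limma called 0 genes of the 12320, with 2295 at an unadjusted p under 0.05.

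**Figure D3:**
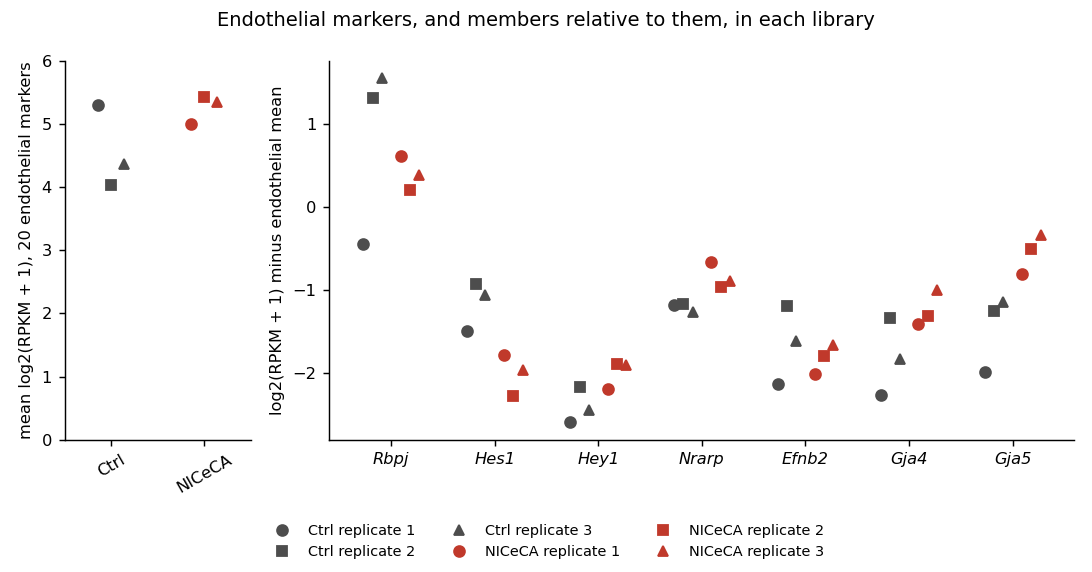
Left, mean log2(RPKM + 1) of 20 endothelial markers in each library; right, log2(RPKM + 1) of each of the 7 tested genes minus that mean. Ctrl replicate 1 reaches the NICeCA level on the left, and on the right Hes1 (lower), Nrarp and Gja5 (higher) are the ones of the 7 whose NICeCA libraries do not overlap Ctrl.

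Markers of other cells also moved with the groups. Of 7 tested neutrophil markers, 6 rose, including S100a8 (62.9 ± 32.2 to 403.2 ± 235.6 RPKM, SD, n = 3 each) and S100a9 (86.0 ± 45.1 to 414.3 ± 289.5 RPKM), and the summed list went from 117 to 268 RPKM in Ctrl to 592 to 1639 RPKM in NICeCA. The platelet chemokine Pf4 rose from 130.2 ± 37.1 to 1017 ± 119 RPKM (SD, n = 3 each), while Itga2b, the platelet integrin subunit, was at 1.46 and 1.93 RPKM, and Pf4 was the 1 of 3 tested platelet markers that passed. Of 8 tested pericyte and smooth muscle markers 3 rose, among them Rgs5 (14.1 to 36.4 RPKM) and Tagln (7.70 to 23.3 RPKM). The summed pericyte list was 37.3 to 54.2 RPKM in Ctrl and 77.2 to 145.8 RPKM in NICeCA. Of 3 tested lymphatic endothelial markers 1 rose, Pdpn (38.4 to 131.2 RPKM), while Lyve1 averaged 10.4 and 15.6 RPKM and Prox1, the defining transcription factor, 0.035 and 0.170 RPKM.

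Fibroblast markers were mixed, with 3 of 7 tested called lower and 1 called higher. Postn, the one that rose, went from 3.08 to 8.15 RPKM and was named after its value had been seen. Col3a1 fell from 341.4 to 159.6 RPKM, and Dcn averaged 26.9 and 14.8 RPKM (adjusted p = 0.092). Of 9 macrophage markers 2 were called higher, whereas the leading ones, Lyz2 (4317 and 3889 RPKM) and C1qa (941 and 681 RPKM), overlapped between the groups. Of the 7 tested T and NK cell markers limma called 0, and voom also 0, while 1 had an unadjusted p under 0.05, with Nkg7 at 13.9 and 11.3 RPKM and Cd3g at 9.21 and 9.15 RPKM. Of 2 tested epithelial markers, Krt18 fell from 4.19 to 1.71 RPKM and Cdh1 averaged 3.99 and 5.23 RPKM. In no list was a marker found in the table at 0 in all 6 libraries. The part of RNA from these other cell types in the values of the 9 genes was not tested.

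**Figure D4:**
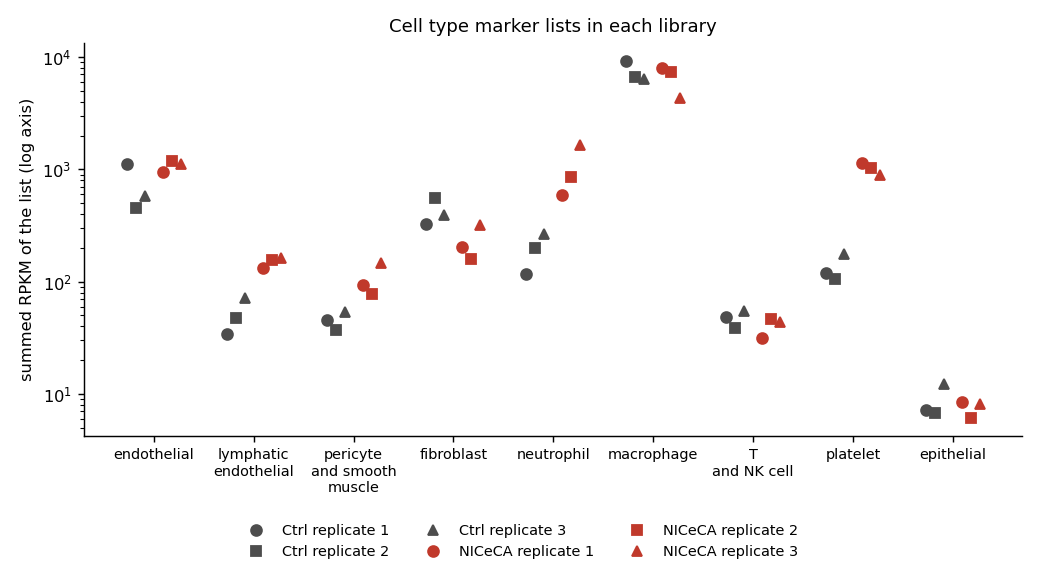
Summed RPKM of 9 cell type marker lists in each library, on a log axis. Neutrophil and pericyte sums are higher in all NICeCA libraries, as are the platelet sum, which is nearly all Pf4, and the lymphatic sum, which is mostly Pdpn, while the endothelial sum of Ctrl replicate 1 lies within the NICeCA range.

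The rest of the pathway was read from lists of genes by role, described by counts beside the values over all 12320 tested genes. Those had a median log2 fold change of -0.05, with 5.88% called higher and 7.68% called lower. Of 8 tested receptors and ligands, Jag1, a Notch ligand, was the one that rose, from 6.83 ± 1.66 to 17.8 ± 0.708 RPKM (SD, n = 3 each; log2 fold change 1.29, SE 0.17, limma adjusted p = 0.011). This 1 call in 8 is a share near the 13.6% of all tested genes. The median log2 fold change of this list was 0.48, below the 0.66 of the 20 endothelial markers. With the endothelial covariate limma called 0 of the 8, the median was -0.04, and Notch1, Notch4 and Dll1 changed sign. Without Ctrl replicate 1, 4 of the 8 were called higher, and without NICeCA replicate 1 or 2 Jag1 was not called.

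Of 21 tested genes that process or modify Notch, 1 rose and 2 fell, around a median of 0.04, a share of calls near the 13.6% of all tested genes. Psenen, a subunit of gamma-secretase, rose from 27.6 to 38.7 RPKM (log2 fold change 0.47, limma adjusted p = 0.041), and it was not called after quantile normalization. The ubiquitin ligase Mib2, known for ligand endocytosis, fell from 10.6 to 5.95 RPKM (-0.73, adjusted p = 0.021). Dtx3, of the Deltex family of ubiquitin ligases, fell from 20.3 to 9.38 RPKM (-1.05, adjusted p = 0.034). The 3 calls became 0 without NICeCA replicate 1 or 2 and 1, Mib2, without Ctrl replicate 2. Psenen and Dtx3 were not called without Ctrl replicate 1, and Psenen was not called without NICeCA replicate 3. Without a filter on low values Mib2 was the one called, and limma called 0 with the replicate block or the endothelial covariate.

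Among 18 tested partners of RBPJ, coactivators and corepressors, 4 fell and 14 did not pass, and the median was -0.22. Spen, which links RBPJ to corepressors, fell from 12.2 ± 1.34 to 5.84 ± 1.40 RPKM (SD, n = 3 each; log2 fold change -0.96, SE 0.17, limma adjusted p = 0.021). The corepressor Ncor1 fell from 14.3 to 9.26 RPKM (-0.58, adjusted p = 0.041), and Tle2, a Groucho family corepressor, from 2.73 to 0.774 RPKM (-1.02, adjusted p = 0.044). Crebbp, a histone acetylase and coactivator, fell as well, from 15.7 to 9.25 RPKM (-0.70, adjusted p = 0.030). The sign of all 4 held under quantile normalization and trimmed mean scaling, although Tle2 was not called under either. The count went to 2 without Ctrl replicate 1 and to 0 without Ctrl replicate 2, NICeCA replicate 1 or NICeCA replicate 2. It was 2, Spen and Crebbp, with the replicate block, and 0 without a filter on low values or with the endothelial covariate. With voom it was 6.

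Of the other Hes and Hey family genes, 3 of 8 were abundant enough to be tested. Bhlhe40, a related helix-loop-helix repressor that also responds to hypoxia, rose from 34.4 ± 18.3 to 71.3 ± 9.16 RPKM (SD, n = 3 each; log2 fold change 1.14, SE 0.31, limma adjusted p = 0.0496). It was not called after quantile normalization, without a filter on low values, with a pseudocount of 0.1 or with the endothelial covariate. Nor was it called without the mean-variance trend of limma. Of the fits that leave out 1 library, only the fit without Ctrl replicate 3 called it.

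Of 18 other arterial genes tested, 5 rose and 13 did not pass, with 16 positive values and a median log2 fold change of 0.64. Mgp, a matrix protein that inhibits calcification, rose most, from 4.03 ± 0.716 to 22.1 ± 4.70 RPKM (SD, n = 3 each; log2 fold change 2.19, SE 0.18, limma adjusted p = 0.0069). Igfbp3, which binds insulin-like growth factors, rose from 92.9 to 308.5 RPKM (1.80, adjusted p = 0.021). Stmn2, a stathmin that acts on microtubules, rose from 0.599 to 2.73 RPKM (1.20, adjusted p = 0.019), and Sema3g, an arterial class 3 semaphorin, from 9.23 to 20.9 RPKM (1.14, adjusted p = 0.041). Jag1 and its value above belong to this list too. The median of this list is close to the 0.66 of the 20 endothelial markers. Without Ctrl replicate 1, 10 of the 18 were called, without NICeCA replicate 1 Stmn2 and Mgp were, and without NICeCA replicate 2 Mgp was the one called. With the endothelial covariate limma called 0 of them and the median was 0.13.

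Venous genes had no common direction, with 5 of 10 tested values positive and a median of 0.07. Of the 10, 1 was called, a share near the 13.6% of all tested genes. Vwf, the von Willebrand factor that venous endothelium expresses strongly, was the one that rose, from 10.9 ± 4.01 to 24.5 ± 3.29 RPKM (SD, n = 3 each; log2 fold change 1.15, SE 0.26, limma adjusted p = 0.036). It was not called after quantile normalization, without a filter on low values, without any one of the NICeCA libraries or with the endothelial covariate. Nor was it called with the replicate block. Nr2f2, a venous transcription factor, averaged 3.25 RPKM in Ctrl and 1.78 RPKM in NICeCA (log2 fold change -0.61, limma adjusted p = 0.074). Every NICeCA library was below every Ctrl library for Nr2f2. Il1r1 averaged 16.4 and 9.82 RPKM, with overlapping groups (-0.69, limma adjusted p = 0.078). Nr2f2 and Il1r1 did not pass with all libraries and were named after their values had been seen. In the ephrin-B group, 2 of 8 genes were tested besides Efnb2. Ephb4, the venous receptor for ephrin-B2, averaged 9.14 and 11.5 RPKM (log2 fold change 0.34, adjusted p = 0.34), and Efnb1 2.64 and 3.64 RPKM (0.41, adjusted p = 0.36).

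Among the other connexins, 2 of 18 reached a mean of 1 RPKM, and 16 were under 1 RPKM in every library. Gja1 (connexin 43) averaged 35.5 ± 5.61 RPKM in Ctrl and 41.9 ± 8.55 RPKM in NICeCA (SD, n = 3 each; log2 fold change 0.23, limma adjusted p = 0.41). Gjc1 (connexin 45) averaged 4.22 and 3.14 RPKM (-0.34, adjusted p = 0.29). Gja1 was thus the connexin with the highest level in both groups, while Gja4 and Gja5 were the ones that rose.

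**Figure D5:**
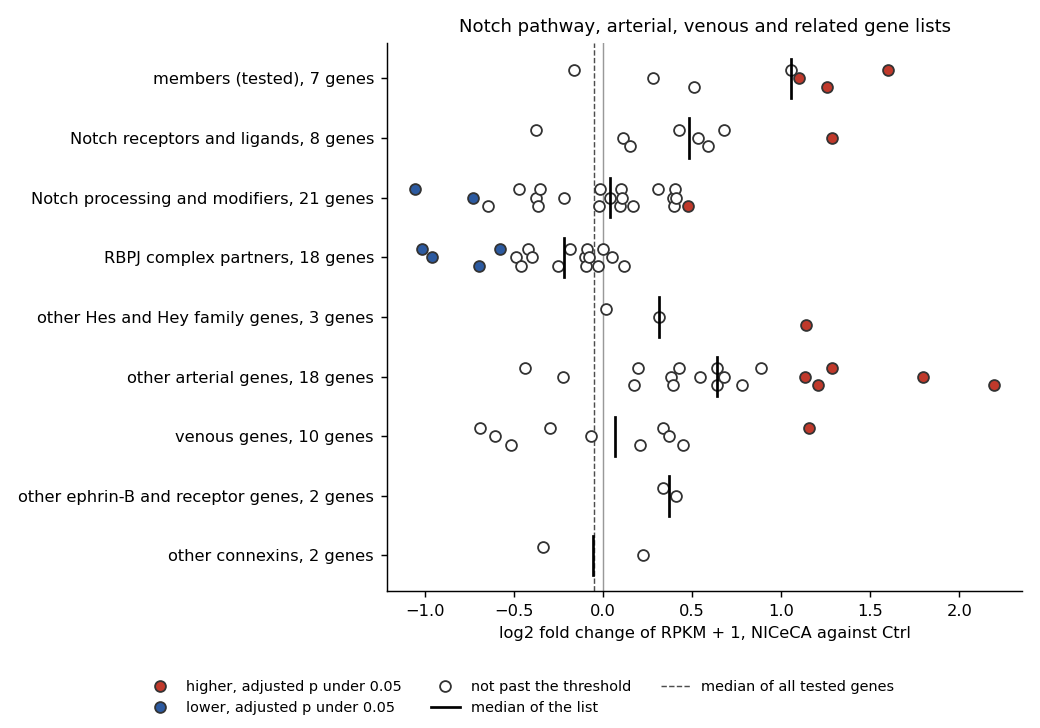
Log2 fold change of RPKM + 1 in NICeCA against Ctrl for the tested genes of each list, filled red (higher) or blue (lower) where the limma adjusted p is under 0.05; black bars are list medians and the dashed line is the median of all 12320 tested genes, -0.05. Arterial genes lie mostly to the right (5 of 18 called higher) and RBPJ partners mostly to the left (4 of 18 called lower). Of all tested genes, 5.88% were called higher and 7.68% lower.

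The similarity of profiles was measured as Pearson's r of log2(RPKM + 1) over the 6 libraries, as a description in which the points share 2 groups and the endothelial level of their library. Gja4 and Gja5 had an r of 0.97, Gja4 and Hey1 0.96, Efnb2 and Hey1 0.94, and Nrarp and Hey1 0.94. Hes1 had an r of 0.24 with Nrarp, its highest among the members, but after the group means had been subtracted the 2 genes had an r of 0.94. Rbpj also stood apart, with an r of -0.67 with Hes1 and at most 0.39, with Gja5, among the members.

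Among all tested rows, the 3 most like Gja5 were Ccdc126, 2310001H17Rik and Bst2 (r of 0.99 each). Those most like Gja4 were 1700056E22Rik, Cxcl1 and Dnajb4 (0.98 to 0.99). The chemokine Cxcl1 averaged 218 RPKM and had a log2 fold change of 1.71 (limma adjusted p = 0.011). Hey1 was matched best by C1qtnf1, Fbln2 and Sparc (0.99 to 1.00), the last 2 encoding extracellular matrix proteins. Nrarp was matched by Inhbb, Bcam and Grb10 (0.99 to 1.00), with Inhbb, an activin subunit gene, at a log2 fold change of 1.20 (limma adjusted p = 0.045). Efnb2 was matched by Slco4a1, Pik3r3 and Ints6 (0.97 to 0.99), Hes1 by Ccdc101, Sfn and Gpr4 (0.96 to 0.98), and Rbpj by Ube2d2a, Usb1 and Pilrb1 (0.98 to 0.99).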

How the data were processed

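RNA was sequenced from CD31-captured TECs of 3 Ctrl and 3 NICeCA mice after depletion of ribosomal RNA. The authors deposited RPKM per library over 56826 rows, 33353 of them FANTOM3 models, which were left out of the main comparison. TopHat2 and mm9 are named in the submitters' processing notes, but 99.4% of 21845 matched RefSeq rows overlap their gene in GRCm38, whose positions are given. The sources used here do not name the counting tool.

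From the deposited RPKM, log2(RPKM + 1) was compared by limma (version 3.58.1, R 4.3.3; lmFit and trended eBayes, Benjamini-Hochberg, two-sided) over RefSeq rows with a mean of at least 1 RPKM. RPKM times length came in whole reads within 0.05 of a step for 100% of values under 1000 reads, which gave read numbers and depth. The procedure was run on simulated counts of independent libraries without a difference in cell composition, which cannot vouch for the calls in these data. Single values were compared with the exact permutation test. Separate mice are stated by the study's methods.

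Members, lists and tests were chosen with earlier results of these data known, and 1 listed gene is not reported here. The genes named are the members, Notch1, Pecam1, Cdh5, the called genes of each pathway list (at most 6) or otherwise its 2 largest changes, the 2 most abundant genes of each marker list, and the 3 rows most like each member. Alternatives were a replicate block, leaving out each library, other scalings, filters and pseudocounts, no trend, limma voom with the deposited library totals, an endothelial covariate, all rows in 1 fit, and other endothelial references.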

Additional observations from a re-analysis of the deposited data

How the results depend on the processing

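The log2 fold changes of Hey1, Nrarp, Rbpj, Efnb2, Gja4 and Gja5 were positive under all 16 alternatives. Of these 16, Gja5 was called in 14, Gja4 in 13, Hey1 in 7 and Nrarp in 4, and Rbpj and Efnb2 in 0. The 3 members called higher became 4 with voom, a 5 RPKM minimum and all rows in 1 fit, 2 after quantile normalization, 1 (Gja5) without a filter on low values and 0 with the endothelial covariate. Leaving out 1 library each gave between 0 and 4, with 0 without NICeCA replicate 2 and 4 without Ctrl replicate 1. The 1671 genes called overall became 771 after quantile normalization, 365 without a filter, 3211 with all rows, 0 with the covariate, and between 27 (without NICeCA replicate 2) and 1661 with 1 library left out. Hes1 ranged from a log2 fold change of -0.307 to 0.0389 over the 6 fits that omit a library, positive without Ctrl replicate 1. Relative to the endothelial markers, Hey2, too low for this scale, turned to 0.0660 with a pseudocount of 0.1, and Efnb2 ran from -0.424 to 0.0476, positive without Ctrl replicate 2. The cause was not tested.

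Libraries of the same replicate number did not deviate together (r of 0.12, -0.34 and -0.18), so the numbers were not taken to pair the mice, although the study's methods speak of 3 pairs without naming them. With the replicate block, 536 genes were called, and Gja4 and Gja5 but not Hey1 (adjusted p = 0.077) among the members. Depth limits Hey2 and Heyl, with 4 to 118 reads per library.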

Other observations

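Ratios between members within a library do not depend on the library total. They can still depend on the cell composition of the library, whose part was not tested. The pairs were chosen after their values had been seen, and how often other pairs separate the groups was not counted. Hey1 over Hes1 was 0.425, 0.349 and 0.313 in Ctrl and 0.727, 1.36 and 1.05 in NICeCA, a difference of 1.49 on the log2 scale (exact permutation p = 0.1, two-sided, n = 3 each). Nrarp over Hes1 was 1.26, 0.823 and 0.855 in Ctrl and 2.32, 2.69 and 2.22 in NICeCA, a difference of 1.32 (exact permutation p = 0.1, two-sided, n = 3 each). In both ratios every NICeCA library was above every Ctrl library. Gja5 over Gja4 overlapped, with 1.24, 1.07 and 1.74 in Ctrl and 1.57, 1.80 and 1.61 in NICeCA (exact permutation p = 0.3, two-sided, n = 3 each). A ratio shows unequal change of its 2 genes and not which of them changed.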
